A study of Mus musculus with 12 samples.

Results

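The overload response of MRTF double knockout (dKO) cardiomyocytes was taken as the 3 libraries from dKO hearts under pressure overload (TAC, narrowing of the aorta) against the 3 libraries from sham-operated dKO hearts. They are 6 of the 12 libraries of the series. The dKO mice carried MHC-MerCreMre/+, Mrtf-a-/- and Mrtf-bflox/flox, and the control mice, whose 3 sham and 3 TAC libraries were used for comparison, carried alphaMHC-MerCreMre/+, so a tamoxifen-activated Cre driven in cardiomyocytes was present in every animal. Mrtf-a was deleted in all cells of a dKO mouse, whereas Mrtf-b was removed only in cells where the Cre acted. All mice were male and received tamoxifen at 30 ug/g on 3 days from 8 weeks of age, in control and dKO alike. Surgery was at 10 weeks per the treatment protocol and at 8 weeks per the design text, and hearts were taken 7 days later, at 11 weeks. Cardiomyocytes were released by perfusion, enriched by settling for 10 min at 37 °C, and sequenced as poly(A) RNA. The sources used here do not say whether each library came from a separate heart, so p-values measure the spread between these libraries.

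Myocardin-related transcription factors A and B are coactivators of serum response factor (SRF), which binds the CArG box, a short AT-rich element in the promoters of many actin cytoskeleton and contractile genes. Monomeric actin holds MRTFs in the cytoplasm, and actin polymerization under mechanical load releases them to the nucleus. A cardiomyocyte under pressure overload is known to thicken, to switch on genes of the fetal heart such as natriuretic peptides and skeletal actin, and to turn down genes of fat oxidation and adult ion channels. The TAC against sham comparison in dKO cells asks which of these changes occur where both MRTFs are targeted.

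The promoter sequences of 6 genes are shown because their mRNAs belong to the fetal program or to the listed SRF targets and because they differ in the SRF element. Each is the 250 bases before the RefSeq start (GRCm38.p6), 5′ to 3′ on the gene's own strand, and capitals mark a CArG box or the MCAT element CATTCC, a TEAD binding motif, on either strand (GGAATG where it lies on the other). Acta1 (chr8:123894776-123895025, minus strand) encodes skeletal alpha-actin, Fhl1 (chrX:56779433-56779682, plus strand) a titin-binding LIM protein, Srf (chr17:46556163-46556412, minus strand) the factor itself and Vcl (chr14:20929148-20929397, plus strand) vinculin, and each has at least 1 CArG box. Ankrd1 (chr19:36119845-36120094, minus strand), a titin-associated ankyrin repeat protein, and Nppb (chr4:147985650-147985899, plus strand), the B-type natriuretic peptide, have none in this window but hold CATTCC. Fhl1, Srf and Vcl were chosen after their values were seen.
Acta1: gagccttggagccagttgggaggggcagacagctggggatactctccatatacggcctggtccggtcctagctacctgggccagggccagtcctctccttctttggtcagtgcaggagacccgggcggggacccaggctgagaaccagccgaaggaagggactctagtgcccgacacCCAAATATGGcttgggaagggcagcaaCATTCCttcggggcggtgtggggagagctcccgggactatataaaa
Fhl1: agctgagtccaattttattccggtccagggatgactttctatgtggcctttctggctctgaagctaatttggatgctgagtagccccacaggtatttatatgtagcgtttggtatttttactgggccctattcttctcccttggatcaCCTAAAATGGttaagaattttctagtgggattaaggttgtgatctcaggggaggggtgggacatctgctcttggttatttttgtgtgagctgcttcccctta
Srf: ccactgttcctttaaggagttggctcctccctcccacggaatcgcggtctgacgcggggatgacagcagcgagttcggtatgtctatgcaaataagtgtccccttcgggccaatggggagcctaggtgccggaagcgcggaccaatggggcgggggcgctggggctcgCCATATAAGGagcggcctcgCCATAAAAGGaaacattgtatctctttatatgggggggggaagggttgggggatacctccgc
Vcl: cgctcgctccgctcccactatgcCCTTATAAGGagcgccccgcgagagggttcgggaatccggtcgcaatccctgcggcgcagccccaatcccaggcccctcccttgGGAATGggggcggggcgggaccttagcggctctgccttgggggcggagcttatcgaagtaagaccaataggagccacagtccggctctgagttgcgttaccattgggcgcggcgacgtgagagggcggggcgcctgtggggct
Ankrd1: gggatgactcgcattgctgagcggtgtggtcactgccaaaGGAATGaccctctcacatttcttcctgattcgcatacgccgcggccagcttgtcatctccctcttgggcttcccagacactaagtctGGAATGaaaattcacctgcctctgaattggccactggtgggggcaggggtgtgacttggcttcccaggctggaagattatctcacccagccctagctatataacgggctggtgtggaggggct
Nppb: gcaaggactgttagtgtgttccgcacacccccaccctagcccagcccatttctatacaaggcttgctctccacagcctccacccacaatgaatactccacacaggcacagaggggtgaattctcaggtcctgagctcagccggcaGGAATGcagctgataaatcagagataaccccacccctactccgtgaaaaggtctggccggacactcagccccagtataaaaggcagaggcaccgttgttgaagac
A CArG box lay in 1.17% of the 11046 tested genes with a promoter sequence, in 1.91% of the 471 such genes that rose, in 1.17% of the 341 that fell, in 29% of the 31 listed SRF targets and in 15.8% of the 19 fetal genes. CATTCC lay in 10.7% of all these promoters, in 11.9% of those of genes that rose and in 13.2% of those of genes that fell. It lay in 29% of those of the listed SRF targets and in 31.6% of those of the fetal genes. No CArG box overlapped a CATTCC in the promoters of the fetal and SRF lists. These 2 lists share genes, so their shares are not independent. Of the genes in either list, 9 held a CArG box. All 9 were listed SRF targets, and the 3 fetal genes with a CArG box were among them. A match of letters is a description of this window and not evidence of binding.

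The 6 dKO libraries held 20082000 to 28600089 counts, and 3 counts, taken as the floor of detection for counting error only, amounted to between 0.0935 and 0.184 CPM (a count divided by its library's scaled total). Mkl1, the gene of MRTF-A, was at 2.15, 2.88 and 3.2 CPM after sham and 2.5, 2.93 and 2.22 after TAC in dKO, below all control libraries at 7.59 to 16.0. Mkl2, the gene of MRTF-B, was at 15.2 to 28.1 CPM in dKO and 30.1 to 44.1 in control. Reads outside the deleted exons can still count for both genes, and neither passed the TAC against sham test in dKO. The 10 cardiomyocyte identity markers summed to 64620 to 148660 CPM after sham and 49689 to 55993 after TAC, with 0 of 10 called, and dKO sham 1 was the highest. Libraries dKO sham 1 and dKO TAC 2 stood apart. Across 9742 genes, their deviation from the other libraries of their group fell with exon length (Spearman rho −0.621 and −0.598, against 0.457 to 0.648 in the other dKO libraries), and mitochondrially encoded genes took 16.5% and 15.3% of their counts against 24.0% to 28.9%. The fit was therefore repeated without this pair. A gene said to rise or fall, with no value given for that fit, was called there too in the same direction.

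After TAC, 618 genes rose and 469 fell in dKO cardiomyocytes, which is 4.2% and 3.19% of the 14712 genes tested and 7.39% in either direction. Calls rest on edgeR's quasi-likelihood F test at a p below 0.05 after Benjamini-Hochberg adjustment. Of the genes called, 493 rose and 357 fell at least 2-fold. Without dKO sham 1 and dKO TAC 2, 885 genes rose and 695 fell (5.93% and 4.66% of 14923, 10.6% in either direction), and 438 of the 618 (70.9%) and 328 of the 469 (69.9%) were called again in the same direction. Genes called with all libraries made up 49.5% and 47.2% of those longer lists.

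**Figure D1:**
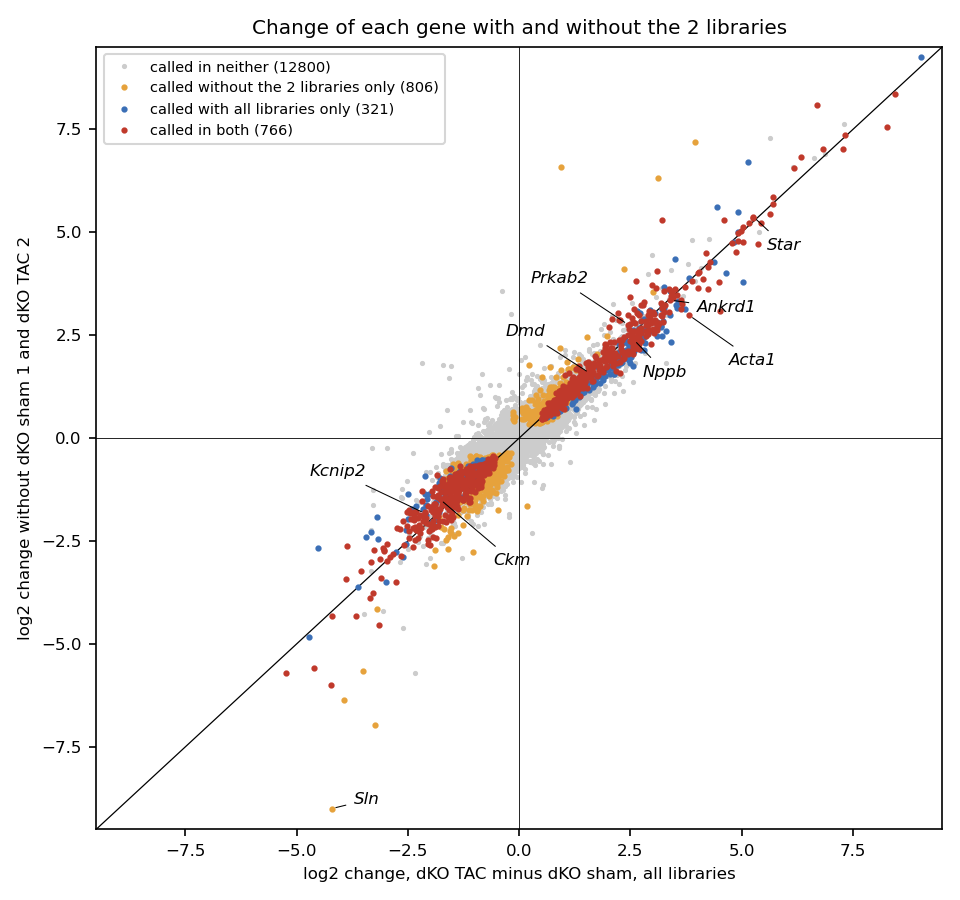
Log2 change from sham to TAC in dKO cells for 14693 genes, with all libraries on the horizontal axis and without dKO sham 1 and dKO TAC 2 on the vertical axis, 1 point per gene, coloured by the fits that called it and with a line of equal change. Of these genes 766 were called in both fits, 321 only with all libraries and 806 only without the pair.

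Transcript length moved with the fold changes. With all libraries, the median log2 change ran from −0.39 in the fifth of genes with the shortest exon length (up to 2737 nt) to 0.24 in the fifth with the longest (8172 nt and over), and without the pair it ran from −0.17 to 0.16. Among the shortest genes 52 rose and 109 fell, and among the longest 98 rose and 20 fell. Without the pair the counts were 82 and 190 among the shortest and 256 and 43 among the longest. When the trend with length was removed within each library, 886 genes rose and 647 fell (6.02% and 4.4%, 10.4% in either direction), and 584 of the 618 and 427 of the 469 were among them. Altogether 412 genes rose and 311 fell in all 3 of these analyses.

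**Figure D2:**
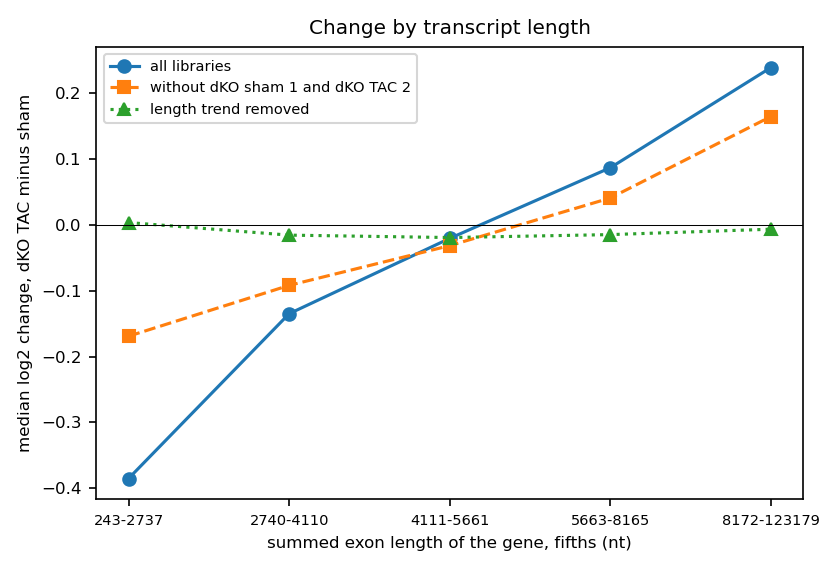
Median log2 change from sham to TAC in dKO cells in 5 classes of genes by summed exon length (nt). The medians climb from short to long genes with all libraries (−0.39 to 0.24), less so without dKO sham 1 and dKO TAC 2 (−0.17 to 0.16), and stay near 0 once the length trend is removed.

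Where the higher group averaged 5 CPM or more, groups did not overlap and the call held without the pair, the steepest increase was that of Sprr1a, a small proline-rich protein known to be induced in stressed cardiomyocytes and injured neurons, at 0.307, 0.18 and 0.828 CPM after sham and 104, 229 and 85.3 after TAC. Every TAC library was far above every sham library (log2 8.26 ± 1.29, SE, adjusted p = 0.00505). Serpinb1c, a member of the intracellular serpins, was at 0.184, 0.324 and 0.452 CPM after sham and 13.8, 14.3 and 15.5 after TAC and rose (log2 5.43 ± 0.49, SE, adjusted p = 0.000342). Closely related Serpinb genes can share reads with it. Rtn4, a reticulon that shapes the endoplasmic reticulum, was at 39.8, 69.9 and 74.1 CPM after sham and 474, 307 and 451 after TAC and rose (log2 2.74 ± 0.32, SE, adjusted p = 0.00137). Among the steepest decreases, Inmt, an amine methyltransferase, was at 8.48, 4.28 and 4.86 CPM after sham and 0.406, 0.499 and 0.575 after TAC. It lay under 1 CPM in all TAC libraries (log2 −3.56 ± 0.56, SE, adjusted p = 0.00538). Pnmt, which makes adrenaline from noradrenaline, fell by log2 2.97 ± 0.50 (adjusted p = 0.00687), and Sbk2, a serine/threonine kinase, by 3.12 ± 0.47 (adjusted p = 0.00472). Penk, the precursor of enkephalins, did not reach the 5 CPM condition and is given beside these genes. It was at 2.89, 2.77 and 3.2 CPM after sham and 0.304, 0.374 and 0.452 after TAC and fell (log2 −2.96 ± 0.36, SE, adjusted p = 0.00167).

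Gene groups differed widely in how many members passed the test. The extracellular matrix list had 22 of 30 members higher, the fetal program 15 of 20, the cell cycle 15 of 24, secreted stress factors 8 of 24 and listed SRF targets 9 of 36, beside 4.2% of all genes. Fatty acid oxidation had 13 of 33 members lower, ion channels 6 of 29 and retinoic acid genes 5 of 15, beside 3.19% of all genes. None of 25 immediate early genes and none of 30 cytosolic ribosomal protein genes was called. The immediate early genes summed to 4401 to 4685 CPM after sham and 1957 to 3171 after TAC, with Egr1 at 579, 815 and 855 CPM after sham and 293, 416 and 273 after TAC (adjusted p = 0.0972) and Jun at an adjusted p of 0.0926.

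**Figure D3:**
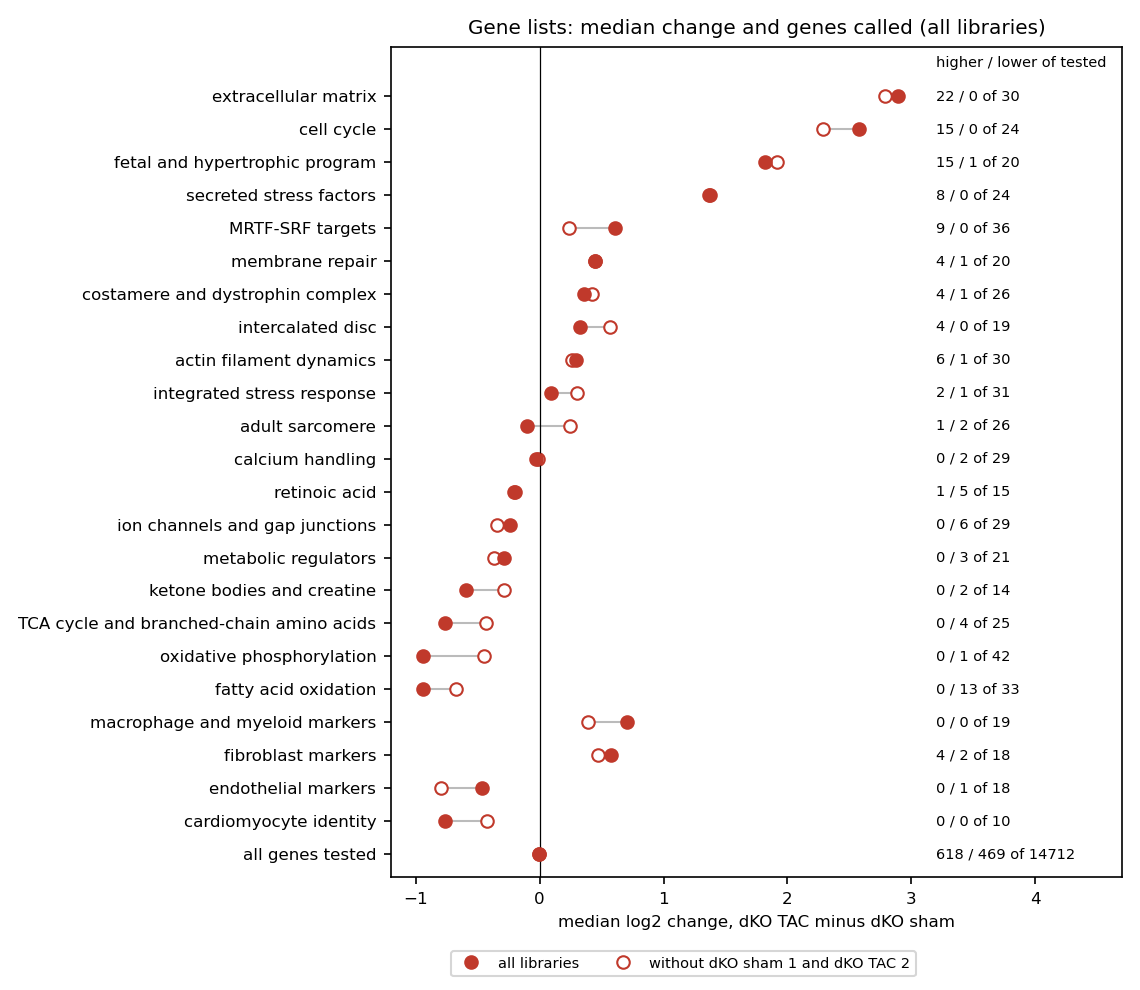
Median log2 change from sham to TAC in dKO cells for 23 gene lists and for all genes tested, with filled points for all libraries and open points without dKO sham 1 and dKO TAC 2; the numbers at the right give the members called higher and lower with all libraries. Matrix, cell cycle and fetal genes have the highest medians, from 1.82 to 2.90, and fatty acid oxidation and oxidative phosphorylation the lowest, at −0.94, with the latter nearer 0 without that pair.

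Most of the fetal program rose in dKO cells. Its 20 tested members had a median log2 change of 1.82, against −0.0062 for all genes, with 15 higher and 1 lower. Without the pair the median was 1.92, with 13 higher and 2 lower. Nppb (chr4:147985788-147987205, GRCm38) was at 101, 99.5 and 127 CPM after sham and 621, 754 and 566 after TAC. The groups did not overlap, and Nppb rose 5.94-fold (log2 2.57 ± 0.22, SE, adjusted p = 0.000342), with log2 2.39, adjusted p = 0.00147 without the pair. Nppa, the atrial natriuretic peptide, was at 112, 165 and 257 CPM after sham and 1838, 1163 and 1992 after TAC. Every TAC library lay above every sham library (log2 3.22 ± 0.41, SE, adjusted p = 0.00217). Myh7, the slow beta-myosin heavy chain of the fetal ventricle, was at 433, 374 and 433 CPM after sham and 4212, 2212 and 5339.8 after TAC. All TAC libraries lay above all sham libraries, with dKO TAC 2 the lowest of them (log2 3.25 ± 0.54, SE, adjusted p = 0.00683). The fast-type Mybpc2, a myosin binding protein of skeletal muscle, was at 35.2, 29.3 and 31.8 CPM after sham and 118, 123 and 159.8 after TAC and rose by log2 2.06 ± 0.18 (adjusted p = 0.000342). Rcan1, a calcineurin inhibitor whose transcription calcineurin drives, was at 74.4, 70.4 and 81.6 CPM after sham and 515, 332 and 535 after TAC, again with no overlap (log2 2.61 ± 0.32, SE, adjusted p = 0.00167). These 5 genes were called in each of the 12 fits that left out 1 library. Myh7b, an ancient cardiac myosin heavy chain, was the member that fell with all libraries (log2 −1.59 ± 0.29, SE, adjusted p = 0.00931). Myh6, the adult alpha-myosin, was not called at log2 −0.91 ± 0.32. Reads of closely related myosin and actin genes can be shared between copies. With 1 library left out, the call was lost without dKO TAC 1 for Myh7b (adjusted p = 0.0587).

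Markers of atrial cells went in both directions. Of the 10 tested, 2 rose and 1 fell with all libraries, and 2 rose and 5 fell without the pair. The shares of all genes were 4.2% and 3.19% with all libraries, and 5.93% and 4.66% without the pair. Beside Nppa, Myl1, an essential myosin light chain, rose (log2 1.02 ± 0.27, adjusted p = 0.0387), and Stard10, a lipid transfer protein, fell (log2 −2.21 ± 0.45, adjusted p = 0.0158). Myl7, the atrial regulatory light chain, was at 1.41, 28.5 and 49.2 CPM after sham and 0.474, 4.12 and 0.452 after TAC, and Sln, atrial sarcolipin, at 0, 9.14 and 14.8 CPM after sham and 0, 1.18 and 0.0411 after TAC. For both genes dKO sham 2 and dKO sham 3 lay above every TAC library, while dKO sham 1 was as low as the TAC libraries. Neither was called with all libraries (adjusted p = 0.071 and 0.0926), and both fell without the pair (adjusted p = 0.017 and 0.0132). In control cells Myl7 was at 14.8, 5.27 and 1.82 CPM after sham and 71, 34.8 and 9.14 after TAC, and the dKO change minus the control change was −6.34 ± 1.68 (interaction adjusted p = 0.841). That difference passed without a filter on low counts (adjusted p = 0.0388), as did those of Myl4, the atrial essential light chain, and Mybphl, a myosin binding protein of atrium and conduction cells (adjusted p = 0.00676 and 0.00507). Calls were lost without dKO TAC 1 or without dKO TAC 3 for Stard10 (adjusted p = 0.0744 to 0.0898). Myl1 kept its call in only 4 of the 12 fits with 1 library left out (adjusted p = 0.0503 to 0.144 in the others; kept without control TAC 1, control TAC 3, dKO TAC 2 and dKO sham 1).

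**Figure D4:**
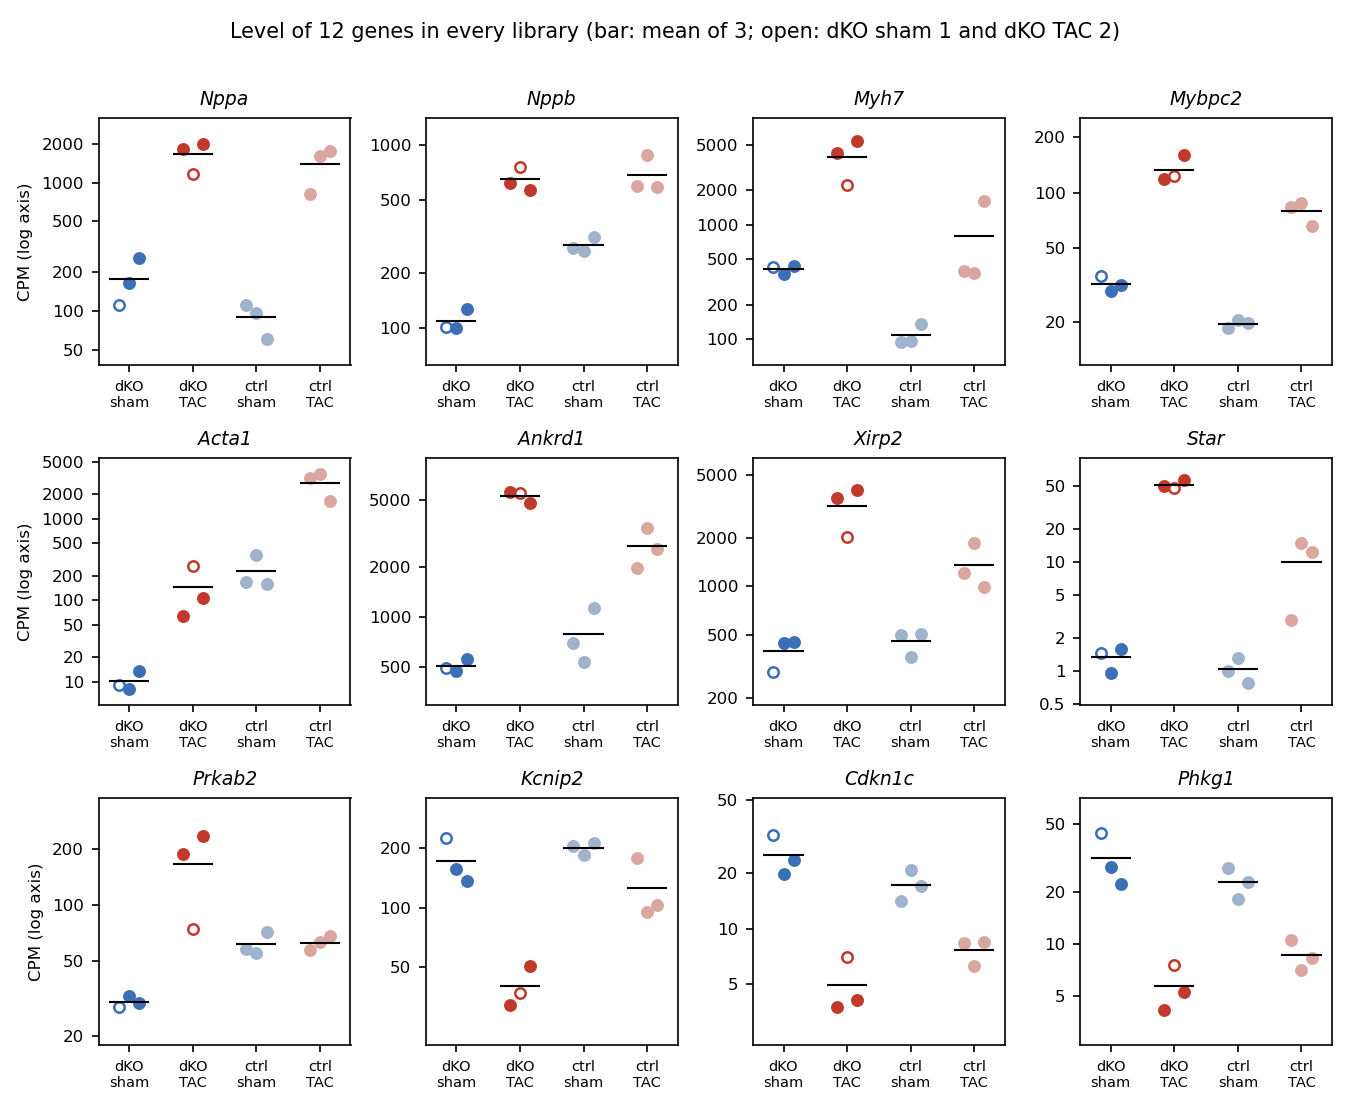
Level of 12 genes in each library of dKO and control (ctrl) cells, in CPM on a log axis, with 1 point per library, bars for the mean of 3 and open points for dKO sham 1 and dKO TAC 2. The 12 genes were picked from called genes after their values were seen. In every panel the 3 dKO TAC libraries lie apart from the 3 dKO sham libraries, which that choice favours. Acta1 is lower in dKO than in control cells after either surgery.

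Some genes of titin-linked and Z-disc proteins rose and others did not pass the test, and they were grouped after their values were seen. Ankrd1 (chr19:36111961-36120099) was at 495, 472 and 554 CPM after sham and 5630.5, 5537 and 4843 after TAC. It rose 10.5-fold with no overlap (log2 3.40 ± 0.32, SE, adjusted p = 0.000416) and by log2 3.35 without the pair (adjusted p = 0.00242). Its relatives Ankrd2 (log2 4.51, adjusted p = 0.012) and Ankrd23 (log2 1.48, adjusted p = 0.00918), which also bind titin, rose as well. Xirp2, an actin-binding repeat protein of the intercalated disc, was at 289, 443 and 452 CPM after sham and 3545, 2028 and 3986 after TAC. The groups were far apart (log2 3.01 ± 0.34, SE, adjusted p = 0.00137). Flnc, the muscle filamin that crosslinks actin at Z-discs and is known to gather at sites of filament damage, was at 228, 332 and 333 CPM after sham and 752, 709 and 741 after TAC and rose by log2 1.30 ± 0.22 (adjusted p = 0.00747). Enah, an actin filament elongation factor, rose by log2 1.58 ± 0.23 (adjusted p = 0.00411). Synpo2l, a Z-disc adaptor, rose by log2 2.28 ± 0.29 (adjusted p = 0.00233). The LIM protein genes Csrp3 and Fhl2 and the actin-anchoring Nrap were not called (log2 0.29, −0.54 and 0.58, adjusted p = 0.597, 0.186 and 0.176).

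Of 36 tested SRF targets, 9 rose and 0 fell, with a median log2 change of 0.61 that was 0.23 without the pair, where 8 rose. Acta1 was at 8.97, 8.2 and 13.4 CPM after sham and 63.1, 261 and 107 after TAC. It rose with no overlap (log2 3.82 ± 0.56, SE, adjusted p = 0.0041), and of its TAC libraries only dKO TAC 2 reached the range of the control sham libraries, 158 to 364 CPM. Control TAC libraries lay above all of these, at 3155, 3539 and 1658 CPM, and the dKO change minus the control change was 0.22 ± 0.70 (interaction adjusted p = 0.948). Itga5, the alpha-5 integrin that binds fibronectin, was at 64.4, 63.4 and 69.2 CPM after sham and 161, 133 and 155 after TAC, and rose (log2 1.19 ± 0.18, SE, adjusted p = 0.00493). Fhl1 rose by log2 1.31 ± 0.30 (adjusted p = 0.0234) but was not called without the pair (adjusted p = 0.0698). Srf, whose promoter holds 2 CArG boxes, was at 85.2, 63.7 and 64.3 CPM after sham and 52.1, 59.6 and 54.4 after TAC and was not called (log2 −0.36 ± 0.18, adjusted p = 0.212). Vcl missed the threshold with all libraries (log2 1.07, adjusted p = 0.0507) and rose without the pair (log2 1.05, adjusted p = 0.00482). Ctgf, a secreted matricellular protein, and Pdlim5, a Z-disc adaptor, rose (log2 2.80 and 1.17, adjusted p = 0.0142 and 0.0105). Hopx, a homeodomain protein that restrains SRF, fell (log2 −1.73 ± 0.32, SE, adjusted p = 0.00981). In fits lacking 1 library, calls were lost without dKO TAC 1 for Fhl1, Ctgf, Pdlim5 and Hopx (adjusted p = 0.0522 to 0.0668), without dKO TAC 2 or without dKO sham 2 for Fhl1 (adjusted p = 0.0582 to 0.0599) and without dKO TAC 3 for Hopx (adjusted p = 0.0528).

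Genes of cell adhesion and of the attachment of the cytoskeleton to the membrane rose in part. The median exon length was 6425 nt in the intercalated disc list and 7024 nt in the costamere list. Over all genes, 4.2% rose with all libraries and 5.93% without the pair, and among the longest genes 98 and 256 rose, so counts grew beyond these lists too. At the intercalated disc, 4 of 19 rose with all libraries and 7 without the pair. Pkp2, desmosomal plakophilin, rose by log2 0.78 ± 0.17 (adjusted p = 0.0206), and Cdh2, N-cadherin, and Gja1, the connexin of ventricular gap junctions, were called only without the pair (log2 0.66 and 0.57, adjusted p = 0.0211 and 0.027). Among 26 costamere genes 4 rose and 1 fell, and 8 rose and 1 fell without the pair. Dmd, dystrophin, was at 21.9, 83.4 and 73.3 CPM after sham and 217, 71.8 and 249 after TAC. Within each group it was lowest in dKO sham 1 and in dKO TAC 2, and the cause of these low values was not tested. Dmd passed when the pair was left out (log2 1.57, adjusted p = 0.0035) and not with all libraries (log2 1.59, adjusted p = 0.0638). Lims2, a partner of integrin-linked kinase, fell (log2 −0.83, adjusted p = 0.0166). The call did not hold without dKO TAC 1 or without dKO TAC 3 for Pkp2 and Lims2 (adjusted p = 0.0779 to 0.0982) and without dKO sham 2 for Pkp2 (adjusted p = 0.0584).

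In the membrane repair list 4 of 20 rose and 1 fell (20% and 5%, against 4.2% and 3.19% of all genes). Without the pair 2 rose and 1 fell, against 5.93% and 4.66% of all genes. Anxa4, an annexin that binds phospholipid in a calcium-dependent way, was at 21.6, 19.5 and 22.6 CPM after sham and 54, 42.1 and 51.8 after TAC. It rose with no overlap (log2 1.21 ± 0.17, SE, adjusted p = 0.00394). Anxa7 was at 95.5, 84.9 and 82.2 CPM after sham and 168, 169 and 154 after TAC and rose by log2 0.91 ± 0.15 (adjusted p = 0.00645), while Anxa1 and Anxa5 were called with all libraries (adjusted p = 0.049 and 0.0209) but not without the pair (adjusted p = 0.156 and 0.0506). Dysf, dysferlin, which fuses vesicles at membrane wounds, was not called (log2 0.45 ± 0.19). With 1 library left out, the call was lost without dKO TAC 1 or without dKO TAC 2 or without dKO sham 2 for Anxa5 (adjusted p = 0.0516 to 0.0794). Anxa1 kept its call in only 4 of the 12 fits with 1 library left out (adjusted p = 0.0582 to 0.155 in the others; kept without control TAC 1, control TAC 3, control sham 2 and control sham 3).

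Genes of a few repolarizing, sodium and pacemaker channels fell. Of 29 channel and gap junction genes, 6 fell and 0 rose with all libraries, and 4 fell and 4 rose without the pair. Over all genes, 4.2% rose and 3.19% fell with all libraries, and 5.93% and 4.66% without the pair. Kcnip2, an accessory subunit of the channels that carry the transient outward potassium current, was at 226, 157 and 137 CPM after sham and 32.3, 37.2 and 50.6 after TAC. The groups did not overlap (log2 −2.12 ± 0.28, SE, adjusted p = 0.00278). Scn4b, a beta subunit of the cardiac sodium channel, was at 29.4, 36.5 and 26.7 CPM after sham and 5.85, 10.3 and 7.8 after TAC and fell (log2 −1.95 ± 0.29, SE, adjusted p = 0.00458). Hcn2, a hyperpolarization-activated pacemaker channel, and Kcnh2, the rapid delayed rectifier, fell by log2 1.26 and 1.03. Kcnq1, Kcne1 and Gja1 were among those that rose without the pair, with adjusted p of 0.071 to 0.211 when all libraries were used. Among 29 calcium handling genes 0 rose and 2 fell (6.9%) with all libraries, and 3 rose and 4 fell without the pair. Hrc, a calcium-binding protein of the sarcoplasmic reticulum, and Camk2a were the 2 that fell (adjusted p = 0.0216 and 0.0282). Atp2a2, the calcium pump of that store, was not called at log2 −0.77 ± 0.31. In cyclic nucleotide signalling, Prkar1a, the regulatory subunit that restrains protein kinase A, was at 340.4, 457 and 467 CPM after sham and 1059, 820.1 and 1197 after TAC and rose (log2 1.28 ± 0.21, SE, adjusted p = 0.00645). It was the 1 of 32 genes of that list called with all libraries (3.1%, against 4.2% of all genes that rose). Without the pair 5 rose, against 5.93% of all genes. Calls were lost without dKO TAC 1 or without dKO TAC 3 for Hcn2, Kcnh2, Hrc and Camk2a (adjusted p = 0.0527 to 0.138), without dKO TAC 2 or without dKO sham 2 for Camk2a (adjusted p = 0.0514 to 0.0671) and without dKO sham 1 for Kcnh2 (adjusted p = 0.0525).

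In the adult sarcomere list, 1 of 26 rose and 2 fell with all libraries (3.85% and 7.69%, against 4.2% and 3.19% of all genes), and 4 rose and 3 fell without the pair. The list's median log2 change was −0.10 with all libraries and 0.24 without the pair. Mylk4, a kinase of the myosin light chain kinase family, was at 138, 230 and 155 CPM after sham and 22, 30.1 and 31 after TAC. All TAC values lay below all sham values (log2 −2.65 ± 0.33, SE, adjusted p = 0.00196). Tcap, the titin cap, fell with all libraries and without the pair (adjusted p = 0.045 and 0.0431). Tcap kept its call in only 3 of the 12 fits with 1 library left out (adjusted p = 0.0557 to 0.188 in the others; kept without control TAC 1, dKO sham 2 and dKO sham 3).

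Several genes of fat oxidation fell, while most of those of the respiratory chain did not pass. Of 33 fatty acid oxidation genes, 13 fell and 0 rose, with a median log2 change of −0.94, and without the pair 8 fell with a median of −0.68. Ech1, which shifts double bonds of unsaturated acyl chains, was at 3273, 1413 and 1265 CPM after sham and 439.6, 693 and 416 after TAC. It was highest in dKO sham 1, and the sham and TAC libraries did not overlap (log2 −1.94 ± 0.40, SE, adjusted p = 0.0154). Acaa2, the thiolase of the last step, fell by log2 1.67 ± 0.35 (adjusted p = 0.018), and Lipe, hormone-sensitive lipase, by 0.93 ± 0.19 (adjusted p = 0.0155). Each of the 13 lost its call without dKO TAC 1 and without dKO TAC 3 (adjusted p = 0.0895 to 0.196 and 0.0666 to 0.15). The 42 oxidative phosphorylation genes had the same median, −0.94, but only Cox7a1 fell (adjusted p = 0.0387), which is 2.38% of that list. Without the pair that median was −0.45 and 6 of 42 fell. Over all genes, 3.19% fell with all libraries and 4.66% without the pair. The median exon length of this list was 1831 nt, and that of fatty acid oxidation 3372 nt, so both fall where length moved with the values. The part of length in the list medians was not tested beyond removing its trend, which left −0.53 for oxidative phosphorylation and −0.89 for fatty acid oxidation. Cox7a1 kept its call in only 6 of the 12 fits with 1 library left out (adjusted p = 0.0544 to 0.175 in the others; lost without control TAC 2, control sham 1, control sham 3, dKO TAC 1, dKO TAC 3 and dKO sham 1).

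Among energy transfer genes, Ckm, muscle creatine kinase, was at 3597, 1388 and 1367 CPM after sham and 482, 870.4 and 499 after TAC and fell by log2 1.78 ± 0.39 (adjusted p = 0.0211). In fits lacking 1 library, calls were lost without dKO TAC 1 or without dKO TAC 3 for Ckm (adjusted p = 0.0916 to 0.112).

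Glycolytic genes split. Phkg1, the catalytic subunit of muscle phosphorylase kinase, was at 44.5, 28 and 22.4 CPM after sham and 4.13, 7.58 and 5.26 after TAC. It fell with no overlap (log2 −2.48 ± 0.31, SE, adjusted p = 0.0019). Pfkfb1, which makes and breaks fructose 2,6-bisphosphate, fell by log2 1.93 ± 0.29 (adjusted p = 0.00472), and Fbp2, muscle fructose bisphosphatase, by 2.16 ± 0.31 (adjusted p = 0.00394). Pfkp, the platelet-type phosphofructokinase, was at 86, 83.5 and 87.6 CPM after sham and 216, 185 and 259 after TAC and rose (log2 1.36 ± 0.24, SE, adjusted p = 0.00865). Slc2a4, the insulin-responsive glucose transporter, fell with all libraries (adjusted p = 0.0241) and not without the pair (adjusted p = 0.0637). Of 37 genes in the list, 2 rose and 4 fell (5.41% and 10.8%, against 4.2% and 3.19% of all genes), with a median log2 change of 0.05. Without the pair 6 rose and 3 fell, against 5.93% and 4.66% of all genes. Pgk1, Eno1 and Ldha were among those that rose without the pair. The call did not hold without dKO TAC 1 or without dKO TAC 2 or without dKO TAC 3 for Slc2a4 (adjusted p = 0.0561 to 0.127).

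Of 7 genes for subunits of the energy sensor AMPK, 2 rose, 1 fell and 4 did not pass the test. Of all genes, 4.2% rose and 3.19% fell. Prkab2 (chr3:97658193-97673812), the beta-2 subunit that anchors the complex and binds glycogen, was at 28.6, 32.7 and 30.1 CPM after sham and 188, 75 and 236 after TAC. All TAC libraries lay above all sham libraries, with dKO TAC 2 the lowest (log2 2.45 ± 0.33, SE, adjusted p = 0.00278). Prkab1, the beta-1 subunit, was at 55.3, 39.3 and 36.6 CPM after sham and 22.4, 28.5 and 20.4 after TAC and fell (log2 −0.88 ± 0.19, SE, adjusted p = 0.0186). Prkag2, a gamma subunit that binds AMP, rose by log2 0.69 ± 0.19 (adjusted p = 0.043). The catalytic subunits Prkaa1 and Prkaa2 were not called (log2 0.36 ± 0.23 and 0.30 ± 0.33), nor were the gamma subunits Prkag1 and Prkag3 (log2 −0.71 ± 0.22 and 1.02 ± 0.30, adjusted p = 0.0661 and 0.0595). The AMPK subunits were chosen after the value of Prkab2 was seen. With 1 library left out, the call was lost without dKO TAC 1 or without dKO TAC 3 for Prkab1 (adjusted p = 0.0889 to 0.101). Prkag2 kept its call in only 4 of the 12 fits with 1 library left out (adjusted p = 0.0575 to 0.19 in the others; kept without control TAC 1, control TAC 3, dKO TAC 2 and dKO sham 3).

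Star, which carries cholesterol into mitochondria for steroid synthesis, was among the steepest increases, at 1.47, 0.971 and 1.58 CPM after sham and 49.6, 47.8 and 56.5 after TAC (log2 5.26 ± 0.52, SE, adjusted p = 0.000602). The sham and TAC libraries were far apart, and the TAC libraries were close to each other. Without the pair it rose by log2 5.38 (adjusted p = 0.0035). Ces1d, a carboxylesterase that releases stored lipid, fell (log2 −3.35 ± 0.60, SE, adjusted p = 0.00865). Retinoic acid genes fell in part, with 1 of 15 higher and 5 lower. Rxra, the retinoid X receptor that pairs with many nuclear receptors, was at 60.8, 62.2 and 63.5 CPM after sham and 39.6, 40.0 and 41.3 after TAC and fell by log2 0.62 ± 0.13 (adjusted p = 0.0179). Rxrb, Rxrg and Rarg fell too (adjusted p = 0.0402, 0.0291 and 0.0368), and Rxrg did not pass without the pair (adjusted p = 0.0677). Cyp26b1, which degrades retinoic acid, fell (log2 −4.73 ± 1.08, adjusted p = 0.0242), and Aldh1a2, which makes it, rose (log2 2.55 ± 0.55, adjusted p = 0.0186). Neither of the enzymes was called without the pair (adjusted p = 0.0526 and 0.0781). Calls were lost without dKO TAC 1 for Rxra, Rxrg, Cyp26b1 and Aldh1a2 (adjusted p = 0.0563 to 0.146), without dKO TAC 3 for Rxra, Rxrg and Cyp26b1 (adjusted p = 0.0662 to 0.0788), without dKO TAC 2 for Rxrg and Cyp26b1 (adjusted p = 0.0575 to 0.0671), without dKO sham 1 for Rxrg (adjusted p = 0.0615) and without dKO sham 2 for Aldh1a2 (adjusted p = 0.0532). Rxrb kept its call in only 5 of the 12 fits with 1 library left out (adjusted p = 0.053 to 0.182 in the others; kept without control TAC 1, control TAC 3, dKO TAC 2, dKO sham 2 and dKO sham 3). Rarg kept its call in only 6 of the 12 fits with 1 library left out (adjusted p = 0.0552 to 0.165 in the others; lost without control TAC 2, control sham 3, dKO TAC 1, dKO TAC 3, dKO sham 2 and dKO sham 3).

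A number of secreted stress signals rose. Of 24 tested, 8 rose and 0 fell, and 7 rose without the pair. Lcn2, lipocalin-2, which binds bacterial iron carriers and marks tissue injury, was at 6.64, 3.31 and 2.94 CPM after sham and 25.8, 29.1 and 33.2 after TAC. The groups did not overlap (log2 2.79 ± 0.30, SE, adjusted p = 0.00137). Gdf15, a stress hormone of the TGF-beta family, was at 2.15, 1.04 and 1.51 CPM after sham and 10.2, 6.92 and 13.9 after TAC and rose (log2 2.74 ± 0.48, SE, adjusted p = 0.00843). Hbegf, an EGF-family growth factor, rose by log2 1.57 ± 0.29 (adjusted p = 0.0105). Igf1 rose by log2 2.56 ± 0.50 (adjusted p = 0.0127). Serpina3n, a serine protease inhibitor, rose as well (log2 3.45 ± 0.54, SE, adjusted p = 0.00524). Tnfrsf12a, the receptor of the cytokine TWEAK, was at 58, 37.9 and 49.8 CPM after sham and 127, 131 and 135 after TAC and rose (log2 1.43 ± 0.24, SE, adjusted p = 0.00668). Fstl3, an activin antagonist, rose by log2 2.47 ± 0.22 (adjusted p = 0.000342). In fits lacking 1 library, calls were lost without dKO TAC 1 for Igf1 (adjusted p = 0.0568).

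The integrated stress response, heat shock chaperone and antioxidant lists each had 2 genes higher (6.45%, 8% and 8.33% of their tested genes, against 4.2% of all genes), and 1, 0 and 0 lower (3.19% of all genes). In the first list, of 31 genes, Gdf15 was among the higher ones. The lower one, Ddit3, encodes the factor CHOP and fell by log2 1.71 ± 0.44 (adjusted p = 0.0358). Atf4 was not called (log2 −0.28 ± 0.20). Of 25 heat shock chaperones, Hspa1l (log2 1.51, adjusted p = 0.00572) and Hsp90aa1 (log2 1.09, adjusted p = 0.0193) rose, and reads of Hspa1l may be shared with its close Hsp70 relatives. Among 24 antioxidant genes, Gpx3, the secreted glutathione peroxidase, was at 334, 185 and 204 CPM after sham and 1346, 844 and 1762 after TAC and rose (log2 2.45 ± 0.38, SE, adjusted p = 0.00493), and Nox4, an NADPH oxidase that makes hydrogen peroxide, was called with all libraries (adjusted p = 0.0487) but not without the pair (adjusted p = 0.0585). The call did not hold without dKO TAC 1 or without dKO TAC 3 for Hsp90aa1 (adjusted p = 0.078 to 0.0788). Ddit3 kept its call in only 6 of the 12 fits with 1 library left out (adjusted p = 0.0507 to 0.151 in the others; lost without control sham 1, control sham 3, dKO TAC 1, dKO TAC 2, dKO TAC 3 and dKO sham 1). Nox4 kept its call in only 3 of the 12 fits with 1 library left out (adjusted p = 0.0585 to 0.157 in the others; kept without control TAC 1, control TAC 3 and dKO TAC 2).

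The matrix list had more members that rose than any other list. Of 30 tested, 22 rose and 0 fell, with a median log2 change of 2.90, and 12 rose without the pair with a median of 2.79. Thbs4, a matricellular thrombospondin, was at 4.67, 3.78 and 4.48 CPM after sham and 121, 135 and 166 after TAC. It was low in every sham library and high in every TAC library (log2 5.03 ± 0.70, SE, adjusted p = 0.00371). Postn, periostin, was at 16, 35 and 48.8 CPM after sham and 1289, 690.3 and 1038 after TAC and rose (log2 4.91 ± 0.85, SE, adjusted p = 0.00767). Col8a1 (log2 3.89 ± 0.66, adjusted p = 0.00695) and the collagen crosslinker Lox (log2 4.99 ± 0.94, adjusted p = 0.0113) rose, as did Tgfb2, a ligand that drives matrix synthesis (log2 2.85 ± 0.40, SE, adjusted p = 0.00394). Col1a1 and Col3a1, the main fibrillar collagens, rose with all libraries (log2 3.06 and 3.10, adjusted p = 0.0253 and 0.0248) and lost the call without the pair (adjusted p = 0.0754 and 0.07). Many of these genes are known products of fibroblasts. With 1 library left out, the call was lost without dKO TAC 1 or without dKO TAC 3 or without dKO sham 1 or without dKO sham 2 for Col1a1 and Col3a1 (adjusted p = 0.0599 to 0.09).

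The 18 fibroblast markers summed to 1085 to 1415 CPM after sham and 1493 to 1660 after TAC, so the sums did not overlap, with 4 members higher and 2 lower. Those were 22.2% and 11.1% of the list, against 4.2% and 3.19% of all genes, and 2 rose and 2 fell without the pair. Mfap5 and Cilp, matrix proteins, rose in that list (log2 2.90 and 4.77, adjusted p = 0.00944 and 0.0131), and Gsn and Scara5 fell (log2 −1.53 and −2.01, adjusted p = 0.0117 and 0.00865). Pdgfra, a defining receptor of cardiac fibroblasts, was at 5.16, 22.6 and 28.1 CPM after sham and 35, 25.1 and 34 after TAC and was not called (adjusted p = 0.344). The part of fibroblasts in the matrix result was not tested, and in these bulk samples a change in the number of cells of a type and in RNA per cell cannot be told apart. Calls were lost without dKO TAC 1 for Cilp, Gsn and Scara5 (adjusted p = 0.0504 to 0.0717) and without dKO TAC 3 for Gsn (adjusted p = 0.0543).

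Most cell division genes rose, with 15 of 24 higher and 0 lower, and 10 higher without the pair. Mki67, a marker of cycling cells, was at 2.64, 6.69 and 9.79 CPM after sham and 54.2, 47.8 and 37.1 after TAC. The TAC libraries lay above the sham libraries (log2 2.85 ± 0.41, SE, adjusted p = 0.00394). Cenpe, a kinesin of the kinetochore, rose by log2 2.91 ± 0.42 (adjusted p = 0.0041), and Nusap1, a spindle protein, by 3.13 ± 0.47 (adjusted p = 0.00478). Ccna2, Ccnb1 and Cdk1, the cyclins and kinase of mitosis, rose with all libraries (adjusted p = 0.0169, 0.018 and 0.0184) and were not called without the pair (adjusted p = 0.0589, 0.0554 and 0.0721). In which cells they were expressed was not tested. Of 20 G1 control genes 0 rose and 2 fell, with all libraries and without the pair (10% lower, against 3.19% and 4.66% of all genes). Cdkn1c, the CDK inhibitor p57, was at 32.3, 19.8 and 23.6 CPM after sham and 3.75, 7.08 and 4.11 after TAC. It fell with no overlap (log2 −2.33 ± 0.28, SE, adjusted p = 0.00167). In fits lacking 1 library, calls were lost without dKO TAC 1 for Ccna2, Ccnb1 and Cdk1 (adjusted p = 0.0644 to 0.0664) and without dKO sham 2 for Cdk1 (adjusted p = 0.0519).

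Markers of endothelial, myeloid, mural and blood cells gave few calls with all libraries. Of all genes, 3.19% fell with all libraries and 4.66% without the pair. The 18 endothelial markers summed to 2789 to 3808 CPM after sham and 1767 to 2804 after TAC, and the ranges met through dKO sham 1 and dKO TAC 2. Without that pair they were 3113 to 3808 and 1767 to 2163 CPM, with no overlap. Aqp1 was the member that fell with all libraries (log2 −1.26 ± 0.21, SE, adjusted p = 0.0072), and 7 of 18 fell without the pair, among them Tie1, Emcn and Eng (log2 −0.97, −0.97 and −1.09). The 19 tested macrophage and myeloid markers summed to 304 to 384 CPM and 342 to 608 CPM, with 0 called. Lyz2, a myeloid lysozyme, was at 94.7, 89.5 and 114 CPM after sham and 118, 182 and 87.6 after TAC. The smooth muscle and pericyte markers summed to 987 to 1776 and 899 to 1267 CPM with 1 of 14 lower. Without the pair these sums were 1572 to 1776 and 899 to 1127 CPM, with no overlap, and 4 of 14 fell. The 7 tested blood markers summed to 3.87 to 19.9 and 5.92 to 19.1 CPM with 0 called. The call did not hold without dKO TAC 1 for Aqp1 (adjusted p = 0.0507).

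Whether the overload response of dKO cells differed from that of control cells was tested on the difference of the 2 TAC against sham changes, dKO less control. No gene passed (0 of 14712, smallest adjusted p = 0.515, with 697 genes at an unadjusted p under 0.05). DESeq2 called 8 higher and 3 lower, and limma-voom with library quality weights called 1157 higher and 1342 lower. In the control comparison alone 280 genes rose and 51 fell (1.9% and 0.347%). Side by side, the fetal list had a median log2 change of 1.82 in dKO and 1.53 in control, the matrix list 2.90 and 2.92, the cell cycle list 2.58 and 2.43, and fatty acid oxidation −0.94 and −0.63. The SRF target list was at 0.61 and 0.83. The intercalated disc list was at 0.32 and −0.033, and Xirp2, its steepest member in dKO, at log2 3.01 ± 0.34 and 1.58 ± 0.33 (interaction adjusted p = 0.841).

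A single gene, Prkab2, was called in the interaction by edgeR both without the pair and without dKO TAC 2 alone. Its control libraries lay at 58.5, 55.2 and 72.2 CPM after sham and 57.6, 63.4 and 68.4 after TAC. The dKO sham libraries lay below all of these and the dKO TAC libraries above. The change was log2 2.45 ± 0.33 in dKO and 0.027 ± 0.31 in control, a difference of 2.42 ± 0.45 (adjusted p = 0.515) with all libraries. Without the pair the difference was 2.73 ± 0.22 (adjusted p = 0.00428), and without dKO TAC 2 alone its adjusted p was 0.00285. Dync1li1, a light intermediate chain of the dynein motor, was the other gene called without the pair, at 1.23 ± 0.13 (adjusted p = 0.0228). It was at 65.4, 58.5 and 59.2 CPM after sham and 159.9, 94.7 and 172 after TAC in dKO. With all libraries its difference was 0.96 ± 0.28 (adjusted p = 0.841). With the length trend removed no gene passed, and the smallest adjusted p was 0.165. Nt5e, which makes adenosine outside the cell, was called by DESeq2 and not by edgeR, with a change of log2 1.95 ± 0.33 in dKO and −0.17 ± 0.33 in control (interaction adjusted p = 0.841). DESeq2 also called Nppb (difference 1.27, adjusted p = 0.0415) and Ankrd1 (1.64, adjusted p = 0.0498), each at an edgeR adjusted p of 0.841 with all libraries. Among the 3 that DESeq2 called lower were Myl4 and Mybphl (both adjusted p = 0.0498).

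**Figure D5:**
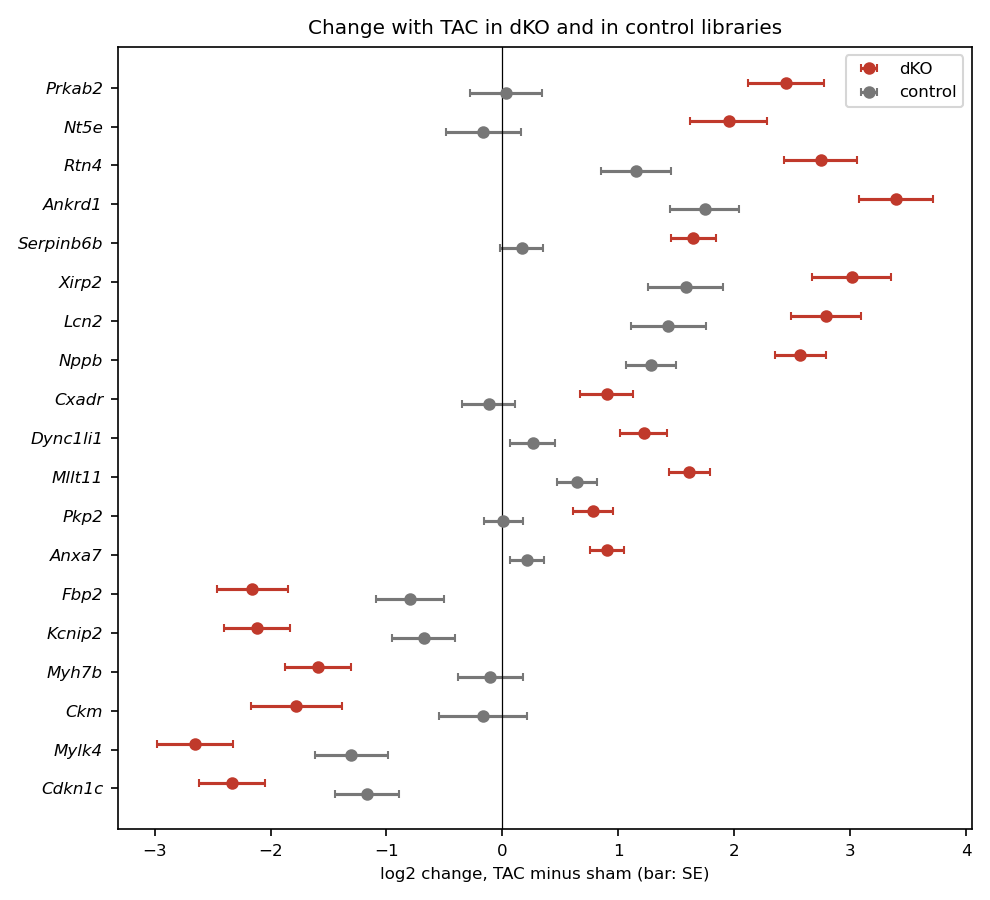
Log2 change from sham to TAC for 19 genes chosen after their values were seen, in dKO cells (red) and control cells (grey), with bars for the SE. Prkab2 lies at 2.45 in dKO and near 0 in control, and each gene shown moved further from 0 in dKO, while none passed the edgeR interaction test with all libraries.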

How the data were processed

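The values are gene-level read counts as deposited, whole numbers that were not normalized. Per the submitters' processing notes, the authors used STAR 2.5.2b, Trimmomatic 0.36, featureCounts and Subread 1.5.0p3 on genome GRCm38.p5. The sources used here do not give the settings, annotation or strand option, so reads of overlapping, antisense or near-identical genes may be split or shared.

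All 12 libraries (3 per group) entered 1 edgeR 4.0.16 quasi-likelihood fit (R 4.3.3) with 4 group means, TMM and filterByExpr, which left 14712 genes and 8 residual degrees of freedom. A call meant p below 0.05 after Benjamini-Hochberg adjustment over all genes tested, the SE was the size of the log2 change over the root of F, and CPM used TMM-scaled totals. No 2 libraries of a dKO group were duplicates. The code was tested on simulated counts. Coordinates and exon lengths came from GENCODE mouse release 21 (GRCm38) and promoters from RefSeq, at the start nearest the annotated one.

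The comparison, members and lists were chosen with earlier results of these data known. The naming rule took Mkl1 and Mkl2, the 12 steepest annotated genes per direction at a mean of at least 5 CPM in the higher group, with no overlap of groups and also called without dKO sham 1 and dKO TAC 2, 4 called members per list with the smallest p and, of a list with none, the 2 with the highest level. Not all are printed. Named after their values were seen were Myh7, Myh7b, Ankrd2, Ankrd23, Synpo2l, Csrp3, Fhl2, Nrap, Fhl1, Srf, Vcl, Cdh2, Gja1, Dmd, Anxa1, Dysf, Kcnh2, Myl4, Mybphl, Kcnq1, Kcne1, Atp2a2, Myl7, Sln, Fbp2, Pgk1, Eno1, Ldha, the AMPK subunits, Rxrb, Rarg, Igf1, Fstl3, Atf4, Col1a1, Col3a1, Pdgfra, Ccna2, Ccnb1, Cdk1, Tie1, Emcn, Eng, Rtn4, Penk, Dync1li1 and Nt5e.

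Alternatives were the fit without those 2 libraries, removal of the length trend, other filters and size factors, a replicate block, the 6 dKO libraries alone, leaving out each library, limma-voom (limma 3.58.1) and DESeq2 1.42.0.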

Additional observations from a re-analysis of the deposited data

How the results depend on the processing

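The number of genes that rose (618) and fell (469) in dKO cells depended most on single libraries and on the tool. Leaving out 1 library gave 161 to 810 higher and 49 to 732 lower genes. Without dKO TAC 1 these were 161 and 49, without dKO TAC 3 234 and 72, without dKO sham 2 301 higher, and without dKO sham 3 732 lower. limma-voom with quality weights called 3024 higher and 2945 lower, and DESeq2 1137 and 1239. Without a count filter 705 fell, and in the 6 dKO libraries alone 164 fell. The cause was not tested. In the interaction, edgeR called 0 genes in either direction. Without dKO sham 1 and dKO TAC 2 it called 2 higher, without the filter 1 higher and 4 lower, and with 1 library left out 0 to 1 higher. DESeq2 called 8 higher and 3 lower, and limma-voom 1157 and 1342. With the replicate block 565 genes rose, 372 fell and 0 passed the interaction. The sources used here do not state that the numbers pair the samples, so they were not taken to. The correlations of the deviations of same-numbered sham and TAC libraries were −0.438, −0.474 and 0.0518. No sham library deviated most closely with the TAC library of its own number. These values could not decide on pairing, because dKO sham 1 and dKO TAC 2 shared the trend with length (correlation of their deviations 0.434). Signs were compared only for the genes taken by the naming rule and some other called genes of the text, not for all genes tested. Among those compared, the sign of 7 genes changed under some alternatives, and none of the 7 was called. Without dKO sham 1 and dKO TAC 2 the log2 change was −0.40 for Hba-a1, −0.37 for Hbb-bs and 0.022 for Rplp0, and with limma-voom it was −1.13, −0.84 and 0.043. With the length trend removed it was −0.074 for Mkl2 and 0.23 for Rplp0, and for Rpl4 it was −0.00549 with median-of-ratios size factors and −0.00542 with DESeq2. With 1 library left out it ran from −0.10 to 0.76 for Hba-a1, −0.12 to 0.99 for Hbb-bs, −0.25 to 0.013 for Mkl1, −0.096 to 0.27 for Mkl2, −0.0965 to 0.26 for Msln, −0.16 to 0.39 for Rpl4 and −0.45 to 0.27 for Rplp0.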
